A study of Mus musculus with 6 samples.

Results

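Hemoglobin and erythroid genes were followed on 6 oligonucleotide arrays of mouse CD4+CD25+ cells, separated with magnets to obtain regulatory T cells (Treg), the Foxp3-expressing CD4+ T cells that restrain immune responses. The genes were the adult globins Hba-a1, Hbb-b1 and Hbb-b2, the carbonic anhydrases Car1 and Car2, the anion exchanger Slc4a1, the heme enzyme Alas2, the transcription factor Klf1 and the erythropoietin receptor Epor. A probe set, the group of short probes that measures 1 transcript, was taken where its annotation carried one of these symbols or one starting with Hba-a or Hbb-b, alone or among others. This gave 19 of 22626 probe sets, which carry 13 symbols of the rule. Several symbols are given for 4 of them, because the adult alpha globins Hba-a1 and Hba-a2 are near-identical and adult beta globin has close copies, so their signal cannot be assigned to 1 copy. The rule itself uses names and no measured value, but its members were chosen with earlier results of these data known.

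Of the 6 arrays, 3 hold RNA of fl-DNMT1/Foxp3cre mice, whose genotype joins a floxed allele of the maintenance DNA methyltransferase Dnmt1 to Cre recombinase under Foxp3, and 3 hold RNA of wild type mice. The strain is C57BL6 for both. The labels give the controls neither the Cre nor the floxed allele, and effects of the transgene and of the deletion cannot be told apart. The Cre is driven in Foxp3-expressing cells, whereas the separation was by CD4 and CD25. Ages and any pooling of mice are not stated. The knockout samples are called independent, with no word on whether 1 mouse gave each, so p-values cover the spread between these samples, which may in part be technical.

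Red blood cells are made in bone marrow and, in mice, also in spleen. Erythropoietin acts through Epor on erythroid progenitors, and transcription factors such as Gata1 and Klf1 then switch on the globins, the heme pathway and the red cell membrane proteins. Reticulocytes, the youngest red cells, have lost the nucleus but still carry abundant globin mRNA. In bulk samples such as these, more erythroid cells and more erythroid RNA per cell cannot be told apart.

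The windows before the start sites of adult globins and Alas2 are shown because these genes were high and low on the same arrays. RefSeq windows of assembly GRCm38.p6 were found for 7 of the 13 symbols. The 250 bases before the annotated start are given 5′ to 3′ on the strand of the gene, and capitals mark matches on either strand to GATAAG, a core bound by GATA factors, and to CCNCNCCC, a CACCC box of the kind bound by Klf1.
Hba-a1 (GRCm38.p6, chr11:32283422-32283671, + strand): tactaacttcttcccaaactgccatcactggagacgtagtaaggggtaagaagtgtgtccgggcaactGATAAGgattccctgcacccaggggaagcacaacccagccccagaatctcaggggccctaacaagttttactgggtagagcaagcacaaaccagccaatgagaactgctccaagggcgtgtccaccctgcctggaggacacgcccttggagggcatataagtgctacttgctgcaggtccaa
Hbb-bs (GRCm38.p6, chr7:103827929-103828178, - strand): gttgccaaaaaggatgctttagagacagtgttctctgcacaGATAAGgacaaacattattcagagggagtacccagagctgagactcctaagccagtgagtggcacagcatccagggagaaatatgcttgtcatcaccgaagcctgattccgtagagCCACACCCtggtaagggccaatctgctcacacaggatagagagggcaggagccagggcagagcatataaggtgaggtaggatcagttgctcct
Hbb-bt (GRCm38.p6, chr7:103813924-103814173, - strand): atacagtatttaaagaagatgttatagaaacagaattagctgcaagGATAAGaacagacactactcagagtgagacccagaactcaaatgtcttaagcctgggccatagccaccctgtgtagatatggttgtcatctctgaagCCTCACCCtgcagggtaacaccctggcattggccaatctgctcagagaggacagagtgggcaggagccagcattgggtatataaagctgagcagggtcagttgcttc
Alas2 (GRCm38.p6, chrX:150547167-150547416, + strand): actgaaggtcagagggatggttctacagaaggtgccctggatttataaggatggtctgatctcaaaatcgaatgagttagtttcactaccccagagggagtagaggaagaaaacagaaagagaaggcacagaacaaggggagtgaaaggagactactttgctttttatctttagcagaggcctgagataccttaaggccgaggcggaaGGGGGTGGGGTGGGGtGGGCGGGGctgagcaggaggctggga
GATAAG lay in the windows of Hba-a1, Hbb-bs and Hbb-bt, with its first base 182, 209 and 204 bases before the start, and 6.55% of 32851 windows of this length hold it. The window of Hba-a2 is 97.6% identical to that of Hba-a1 and also holds the match, while the windows of Hbb-bs and Hbb-bt are 70.9% identical. Klf1 and Epor hold GATAAG on the opposite strand, and the Alas2 window holds none. CCNCNCCC lay in the windows of Hbb-bs, Hbb-bt and Epor and, with matches on the opposite strand that in part overlap each other, of Alas2, but not of Hba-a1, Hba-a2 or Klf1. It is common, being held by 45.9% of all windows. CCAAT and TATAA, letters of general promoter elements, were in each of the 4 adult globin windows and are held by 33.8% and 22.8% of all windows. These matches are a description of letters and show no binding.

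Values are log2 expression after RMA, a method that corrects background, aligns the arrays and summarises the probes of a probe set. Array medians ran from 5.70 to 5.77, and with 3 arrays a group the precision is limited. At a Benjamini-Hochberg adjusted p under 0.05, limma called 1.68% of all probe sets, 270 higher and 110 lower in the knockout, and the median difference was -0.019. The Dnmt1 probe sets went from 9.50 ± 0.066 to 8.96 ± 0.34 (SD, n = 3; limma adjusted p = 0.162) and from 9.45 ± 0.12 to 8.74 ± 0.39 (SD, n = 3; limma adjusted p = 0.113), and where they lie relative to the deleted part is not stated. The labelled cell type was checked against its markers. The mean of the T cell core list was 10.81 to 10.90 across wild type arrays and 10.58 to 10.89 across knockout arrays, and that of the Treg list 9.47 to 9.57 and 8.71 to 9.41. Of 9 Treg markers 3 fell, namely Nrp1 (difference -0.80, limma adjusted p = 0.03), Ikzf2 (-0.77, limma adjusted p = 0.04) and Il2ra (-0.64, limma adjusted p = 0.0444). Each lost the call without any 1 wild type array or without knockout replicate 3, Nrp1 and Il2ra also without knockout replicate 2 and Ikzf2, narrowly, without knockout replicate 1, with limma adjusted p up to 0.187. Of 12 T cell core genes 0 passed the limma test and 2 had an unadjusted p under 0.05, Cd28 (-0.39) and Cd27 (-0.49).

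The bright adult globin probe sets had higher means on the knockout arrays, and 1 of them passed the test. Of the 19 erythroid probe sets, 1 rose, 0 fell and 18 did not pass with limma, while 1.19% of all probe sets rose and 0.486% fell. An unadjusted p under 0.05 was reached by 9 of them, against 16.6% of all probe sets. In 9 every knockout array lay above every wild type array, as in 9.79% of all probe sets, and in 0 below, as in 13.6%. The median difference over the 19 was 0.31, and 16 had a positive difference. In wild type, 14 of the 19 had a mean below the median of all probe sets. Several of the 19 measure the same gene on the same arrays, so these and later counts over them are not of independent units.

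**Figure D1:**
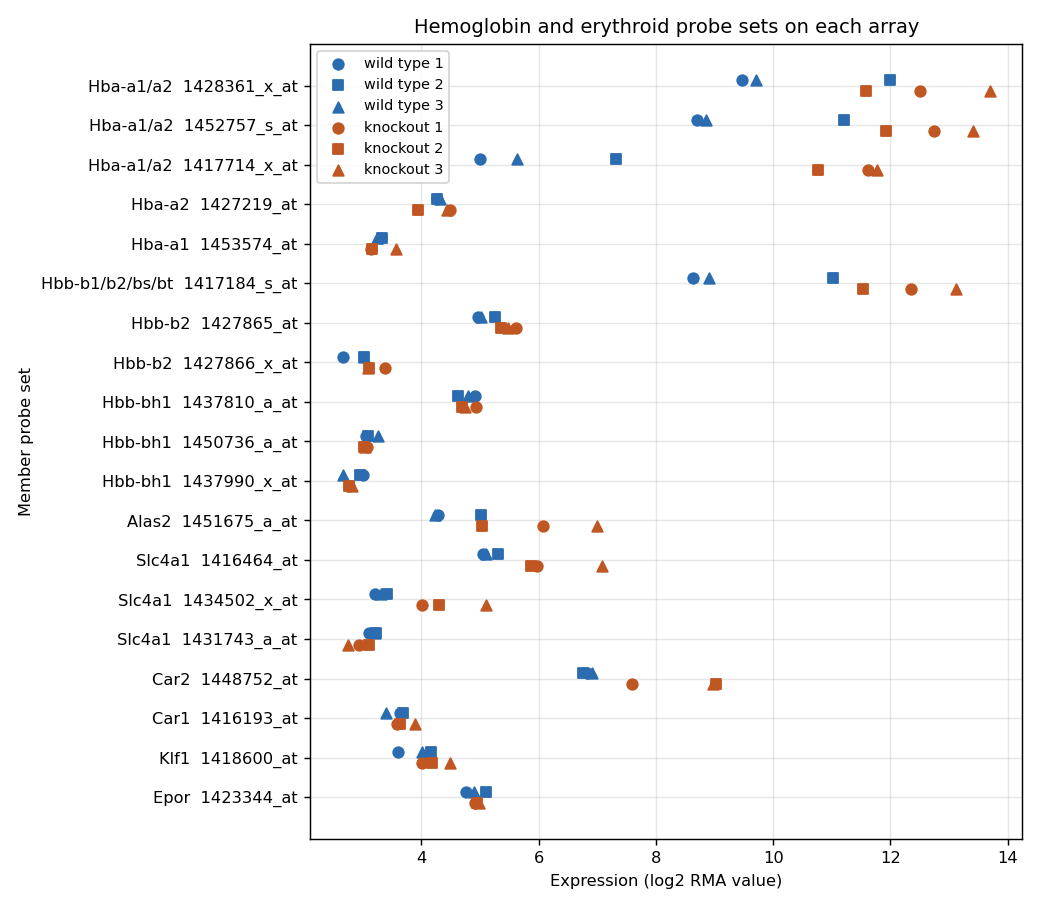
Log2 RMA value (horizontal axis) of each of the 19 probe sets (vertical axis) on the 3 wild type arrays (blue) and the 3 knockout arrays (orange), with 1 symbol shape per replicate number. The bright alpha and beta globin probe sets spread over several log2 units, with wild type replicate 2 above the other wild type arrays, while Hbb-bh1, Car1 and Epor overlap between the groups.

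Alpha globin, which pairs with beta globin in the hemoglobin tetramer, was measured by 5 probe sets. The one that rose, 1417714_x_at, annotated to Hba-a1 and Hba-a2, had 5.0, 7.31 and 5.63 on wild type replicates 1, 2 and 3 and 11.62, 10.77 and 11.77 on the knockout arrays. The groups were 3.46 apart at their nearest arrays. The difference was 5.41 (SE 0.55, 95% interval 4.13 to 6.69), a 42.5-fold higher value (limma adjusted p = 0.00871). Without wild type replicate 3 it was 5.23 (limma adjusted p = 0.062) and no longer passed. A further probe set with this annotation, 1452757_s_at, had 8.70, 11.21 and 8.86 on the wild type arrays against 12.75, 11.92 and 13.41 on the knockout arrays. All knockout arrays were higher, the lowest by 0.72 above wild type replicate 2. The difference of 3.10 (SE 0.67, limma adjusted p = 0.0721) missed the threshold. Leaving out 1 array gave 2.66 to 3.91 (limma adjusted p 0.0257 to 0.246), and it passed without wild type replicate 2, at 3.91 (limma adjusted p = 0.0257).

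The third probe set of that annotation, 1428361_x_at, had 9.46, 11.99 and 9.71 on the wild type arrays against 12.51, 11.59 and 13.70 on the knockout arrays. Here the groups overlapped, since wild type replicate 2 exceeded knockout replicate 2. The difference was 2.21 (SE 0.73, 95% interval 0.51 to 3.91, limma adjusted p = 0.193). Probe sets of 1 annotation thus put the difference between 2.21 and 5.41, with intervals at these ends that did not overlap. All of them placed wild type replicate 2 above the mean of the other wild type arrays, by 2.40, 2.42 and 2.0.

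The other alpha globin probe sets are annotated to a single copy and overlapped between the groups. 1427219_at (Hba-a2) had 4.28 ± 0.029 and 4.29 ± 0.30 (SD, n = 3), a difference of 0.0079 (95% interval -0.33 to 0.34). 1453574_at (Hba-a1) had 3.29 ± 0.039 and 3.29 ± 0.24, with a 95% interval of the difference of -0.28 to 0.29. Neither showed the gap between the groups seen with 1417714_x_at and 1452757_s_at.

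Adult beta globin was measured by 3 probe sets. The bright one, 1417184_s_at, is annotated to Hbb-b1, Hbb-b2, Hbb-bs and Hbb-bt, the adult beta globin genes of different mouse haplotypes. It had 8.63, 11.03 and 8.90 on wild type replicates 1, 2 and 3 and 12.34, 11.53 and 13.13 on the knockout arrays. The groups did not overlap, with knockout replicate 2 lying 0.50 above wild type replicate 2. The difference was 2.81 (SE 0.65, 95% interval 1.32 to 4.31, limma adjusted p = 0.085), a 7.03-fold higher value. Leaving out 1 array gave 2.37 to 3.57 (limma adjusted p 0.0394 to 0.282), and it passed without wild type replicate 2, at 3.57 (limma adjusted p = 0.0394). The probe sets annotated to Hbb-b2 alone also had their knockout arrays above the wild type arrays, with the nearest arrays of the groups 0.10 and 0.067 apart. 1427865_at had 5.08 ± 0.16 and 5.48 ± 0.13 (difference 0.40, limma adjusted p = 0.135), and 1427866_x_at had 2.90 ± 0.21 and 3.19 ± 0.16 (difference 0.29, limma adjusted p = 0.318).

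The embryonic beta-like globin Hbb-bh1, used by primitive red cells of the embryo, had 3 probe sets that all overlapped between the groups. Their differences were 0.0099, -0.089 and -0.09, with 95% intervals that together ran from -0.33 to 0.26. Among embryonic globins outside the name rule, the alpha-like Hba-x had 3.84 ± 0.22 and 3.73 ± 0.30. The beta-like Hbb-y had differences of 0.048, -0.046 and 0.27 on its probe sets (limma adjusted p 0.819, 0.841 and 0.244). On the Hbb-bh1 probe sets wild type replicate 2 differed from the mean of the other wild type arrays by -0.24, -0.065 and 0.12, and it was the highest wild type array on 0 of them.

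Alas2, the erythroid enzyme that starts heme synthesis, had 4.29, 5.01 and 4.24 on wild type replicates 1, 2 and 3 and 6.07, 5.03 and 7.0 on the knockout arrays. The groups touched without overlap, knockout replicate 2 being 0.022 above wild type replicate 2. The difference was 1.52 (SE 0.45, limma adjusted p = 0.158), and leaving out 1 array gave 1.04 to 2.02 (limma adjusted p 0.0425 to 0.389). It passed without knockout replicate 2, at 2.02 (limma adjusted p = 0.0425), and was smallest without knockout replicate 3, at 1.04 (limma adjusted p = 0.251). Its knockout arrays stood in the order of the bright globin probe sets, and Pearson r with 1428361_x_at was 0.94 over the 6 arrays, which share the group difference. Alas1, the housekeeping form of the enzyme, named after its values were read, went from 7.28 ± 0.085 to 7.47 ± 0.061 (limma adjusted p = 0.311).

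Slc4a1, the band 3 anion exchanger that anchors the red cell skeleton, was measured by 3 probe sets that differed in sign. 1416464_at had 5.05, 5.31 and 5.10 on the wild type arrays against 5.97, 5.87 and 7.09 on the knockout arrays. 1434502_x_at had 3.21, 3.42 and 3.31 and then 4.0, 4.31 and 5.09. Knockout replicate 3 was the highest array in both, and the groups did not overlap. The differences were 1.16 (SE 0.30, limma adjusted p = 0.113) and 1.16 (SE 0.25, limma adjusted p = 0.0727). Without knockout replicate 3 they were smaller but past the threshold, at 0.77 (limma adjusted p = 0.0429) and 0.84 (limma adjusted p = 0.0457). The second was 1.39 (limma adjusted p = 0.0265) without knockout replicate 1 and 1.26 (limma adjusted p = 0.0415) with array weights. Over the arrays left out in turn, the limma adjusted p reached 0.313 and 0.237. The third probe set, 1431743_a_at, had 3.18 ± 0.063 and 2.93 ± 0.18 (difference -0.25, 95% interval -0.49 to 0.0031, limma adjusted p = 0.305). The wild type means of 1416464_at, 1434502_x_at and 1431743_a_at lay above those of 44.4%, 17.4% and 14.7% of all probe sets.

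Car2, a carbonic anhydrase of red cells that other cell types also use, followed another order of arrays. It had 6.82, 6.76 and 6.91 on wild type replicates 1, 2 and 3 and 7.59, 9.02 and 8.98 on the knockout arrays. Wild type replicate 2 was the lowest array, in contrast to the globins, and replicate 1 the lowest knockout array. The difference was 1.70 (SE 0.35, limma adjusted p = 0.0641), a 3.24-fold higher value. Leaving out 1 array gave 1.45 to 2.17 (limma adjusted p 0.000157 to 0.21), and it passed without knockout replicate 1, at 2.17 (limma adjusted p = 0.000157). It also passed with a variance trend (limma adjusted p = 0.049) and with array weights (limma adjusted p = 0.0323). Car1, another red cell carbonic anhydrase, had 3.58 ± 0.15 and 3.70 ± 0.16 (difference 0.13, limma adjusted p = 0.641). Over the 6 arrays, which share the group difference, Pearson r of Car2 was 0.64 with 1428361_x_at and 0.94 with the mean of the neutrophil list. Globin probe sets also correlated with that mean. Pearson r was 0.60, 0.74 and 0.84 for alpha globin 1428361_x_at, 1452757_s_at and 1417714_x_at, and 0.71 for beta globin 1417184_s_at.

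The regulators upstream overlapped between the groups. Klf1 had 3.60, 4.16 and 4.0 on the wild type arrays against 4.01, 4.19 and 4.49 on the knockout arrays, a difference of 0.31 (95% interval -0.094 to 0.71, limma adjusted p = 0.427). Epor had 4.76, 5.10 and 4.90 and then 4.91, 4.95 and 4.99, a difference of 0.028 (95% interval -0.21 to 0.26, limma adjusted p = 0.92). Wild type replicate 2 was the highest wild type array for both, as for 13 of the 19 probe sets, against 33.8% of all probe sets.

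**Figure D2:**
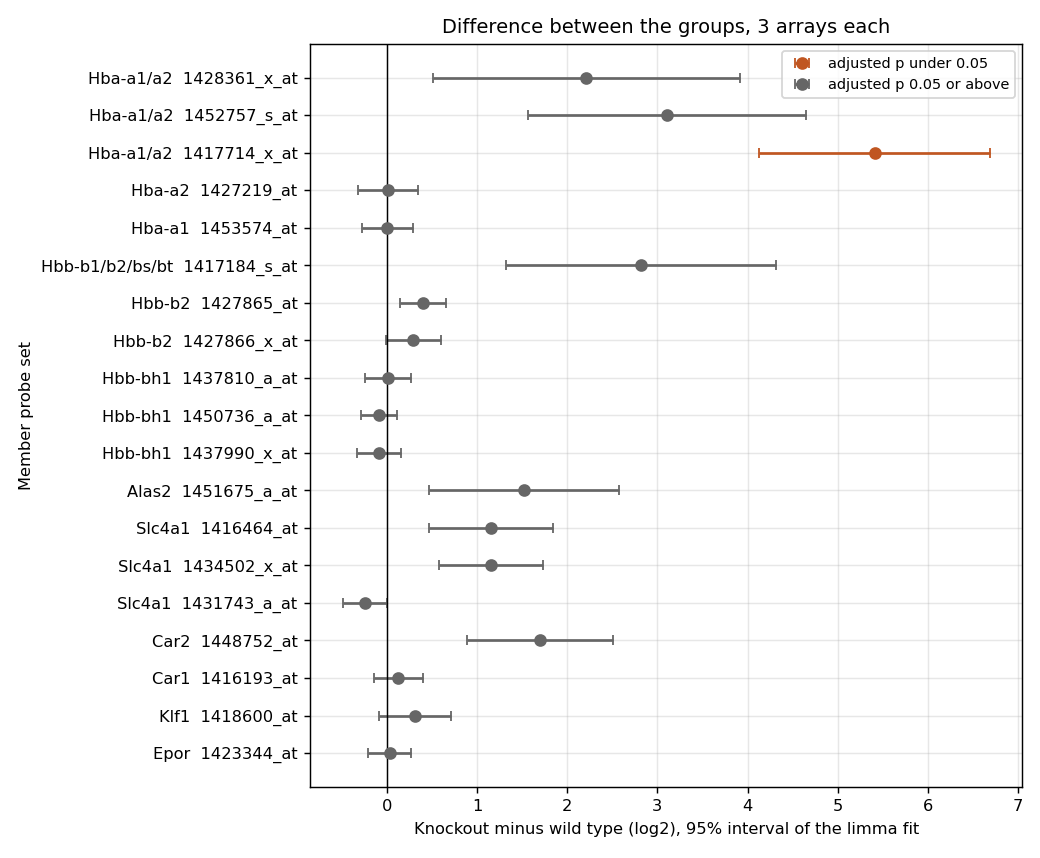
Knockout minus wild type difference on the log2 scale (horizontal axis) of each of the 19 probe sets (vertical axis), with the 95% interval of the limma fit as bars and 3 arrays per group. The orange point, alpha globin 1417714_x_at at 5.41, is the probe set that passed the test, and the intervals of the bright globin probe sets are wider than those of Hbb-bh1, Car1 and Epor.

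Summed per array, erythroid signal ranked the samples as follows. The 8 adult globin probe sets held 0.0217%, 0.119% and 0.0256% of the summed unlogged values on wild type replicates 1, 2 and 3, and 0.285%, 0.16% and 0.5% on the knockout arrays. These are shares of array signal, not of mRNA molecules. Wild type replicate 2 lay nearer to knockout replicate 2 than to the other wild type arrays, and knockout replicate 3 was the highest. The mean log2 value of these probe sets was 6.38 ± 0.70 against 8.16 ± 0.45 (SD, n = 3), a difference of 1.78. The 8 probe sets of Alas2, Slc4a1, Car1, Car2, Klf1 and Epor had means of 4.31, 4.58 and 4.38 on the wild type arrays against 4.88, 5.01 and 5.53 on the knockout arrays, a difference of 0.72. The knockout arrays ran from replicate 3 down to 1 and then 2 in 7 of the 19 probe sets, against 17.2% of all probe sets.

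Other genes of the erythroid programme were read from lists by their brightest single-symbol probe set. Without the members, 0 of 91 measured genes passed the limma test and 23 had an unadjusted p under 0.05, with a median difference of 0.027. Of all 12393 genes, 1.83% passed, 1.32% higher and 0.516% lower, 17.7% had an unadjusted p under 0.05, and the median difference was -0.014. Of 13 heme synthesis genes, Alas2 included, 4 had an unadjusted p under 0.05. Fech, which inserts iron into the porphyrin ring, had 7.30 ± 0.039 and 7.68 ± 0.16 (limma adjusted p = 0.112), and the mitochondrial transporter gene Abcb10 had 6.0 ± 0.065 and 6.42 ± 0.21 (limma adjusted p = 0.127). Each had another probe set of opposite sign, at -0.043 and -0.019. Of 21 membrane and skeleton genes, Slc4a1 included, 7 had an unadjusted p under 0.05, Slc4a1 among them. Stom, encoding stomatin, had 6.32 ± 0.039 and 6.85 ± 0.26 (limma adjusted p = 0.103). Its other probe sets had differences from -0.0037 to 0.35, with groups that overlapped. Rhag, a blood group complex gene named after its values were read, had 2.40 ± 0.095 and 2.78 ± 0.25.

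Among 19 erythroid transcription factor genes, Klf1 included, 8 had a positive difference and 3 an unadjusted p under 0.05. The lowest p belonged to genes that T cells also use. Ldb1, an adaptor of GATA factor complexes, had 9.66 ± 0.018 and 9.29 ± 0.037 (difference -0.36, limma adjusted p = 0.0574). Ldb1 passed with a variance trend (limma adjusted p = 0.026) and with array weights (limma adjusted p = 0.0463). It also passed without the dimmest 40% (limma adjusted p = 0.0371) and with the brightest probe set per symbol (limma adjusted p = 0.0498). With any 1 array left out it did not pass (limma adjusted p 0.0651 to 0.207). Klf3 had 9.29 ± 0.11 and 9.0 ± 0.10 (limma adjusted p = 0.193), and its other probe sets differed by -0.069 and -0.027. Gata1, the central erythroid GATA factor, had 6.87, 6.90 and 6.79 on the wild type arrays against 7.83, 6.14 and 6.52 on the knockout arrays, of which replicate 1 lay above and the others below wild type. Tal1 had 3.08 ± 0.20 and 3.24 ± 0.34, and Nfe2, which platelets also need, 4.86 ± 0.31 and 5.81 ± 0.91. Gata1, Tal1 and Nfe2 were named after their values were read.

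Of 15 genes of erythropoietin signalling, Epor included, 5 had an unadjusted p under 0.05. Kit, the receptor for stem cell factor, had 4.69 ± 0.30 and 5.86 ± 0.56 (limma adjusted p = 0.0908), and Stat5a, a transcription factor downstream of Epor and of interleukin-2, 8.61 ± 0.063 and 8.35 ± 0.12 (limma adjusted p = 0.207). Of 22 genes of late erythroblasts and reticulocytes, 4 had an unadjusted p under 0.05, with the nucleotidase gene Nt5c3 at 8.07 ± 0.048 and 8.35 ± 0.044 (limma adjusted p = 0.13). Ctse, encoding cathepsin E, was read from its brightest probe set. It had 7.48, 7.51 and 7.61 on the wild type arrays against 7.64, 10.72 and 10.49 on the knockout arrays (limma adjusted p = 0.209). Without knockout replicate 1 its difference was 3.07 (limma adjusted p = 7.87e-05). Another Ctse probe set had 5.44, 5.34 and 4.96 on the wild type arrays against 5.94, 5.10 and 5.68 on the knockout arrays. There the groups overlapped, and replicate 1 was the highest knockout array (difference 0.33, limma adjusted p = 0.506). Hemgn, an erythroblast nuclear protein gene named after its values were read, had 3.31 ± 0.28 and 3.58 ± 0.45. Of 9 globin family genes, Hbb-b2 and other genes of the rule included, 3 had an unadjusted p under 0.05, Hbb-b2 among them. Cygb, a globin of connective tissue cells, had 3.96 ± 0.17 and 4.38 ± 0.093 (limma adjusted p = 0.115). Of 14 other carbonic anhydrase genes, 1 had an unadjusted p under 0.05, Car12 at 5.68 ± 0.19 and 4.95 ± 0.46 (limma adjusted p = 0.158), and Car11 had 5.20 ± 0.24 and 4.84 ± 0.27.

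**Figure D3:**
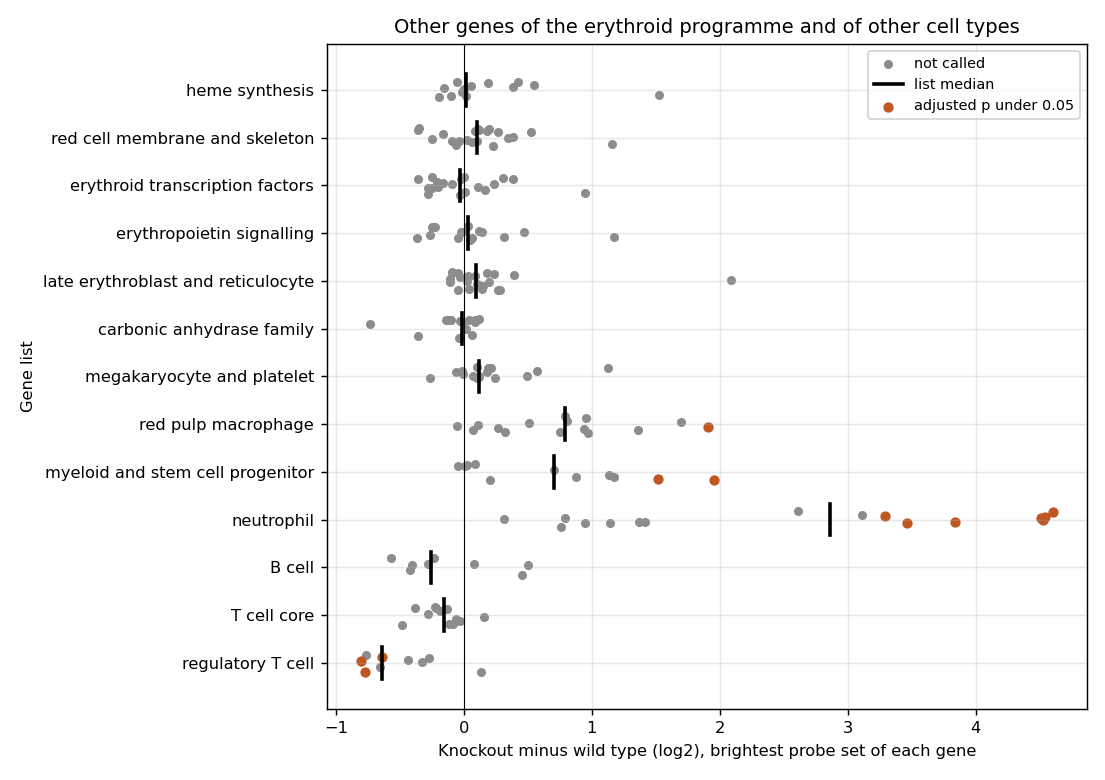
Knockout minus wild type difference on the log2 scale (horizontal axis) of each gene, by its brightest probe set, in gene lists (vertical axis), with the list median as a black bar and genes that passed the limma test in orange. The heme, membrane, transcription factor, signalling and late erythroblast lists have medians from -0.032 to 0.10, and the neutrophil and red pulp macrophage lists 2.86 and 0.79.

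The array orders of markers of other cells are set beside that of the globins. Of 16 neutrophil markers 7 rose and 16 had a positive difference. The calprotectin gene S100a8 rose from 9.49 ± 0.40 to 12.95 ± 0.76 (limma adjusted p = 0.00934) and the granule gene Ngp from 7.70 ± 0.52 to 12.21 ± 1.24 (limma adjusted p = 0.0167). Both lost the call without wild type replicate 1 (limma adjusted p 0.0573 and 0.0803) or 3 (limma adjusted p 0.062 and 0.0878), and Ngp also without 2 (limma adjusted p 0.052). The list mean was 6.22 to 6.61 across wild type arrays, and knockout replicates 1, 2 and 3 had 8.04, 10.14 and 8.75. The array with the highest neutrophil mean, knockout replicate 2, was the knockout array with the least adult globin. Of 15 markers of red pulp macrophages, the spleen cells that clear old red cells, 1 rose and 14 had a positive difference. Slc40a1, the iron exporter ferroportin, rose from 4.99 ± 0.59 to 6.90 ± 0.12 (limma adjusted p = 0.0192), and lost the call without wild type replicate 1, wild type replicate 3 or knockout replicate 3 (limma adjusted p 0.0926, 0.062 and 0.0583). The mannose receptor gene Mrc1 had 3.79 ± 0.21 and 4.60 ± 0.38 (limma adjusted p = 0.0989). The list mean was 4.35, 4.76 and 4.31 on the wild type arrays against 5.47, 4.92 and 5.32 on the knockout arrays. Wild type replicate 2 was thus the highest wild type array, as in 33.8% of all probe sets, and knockout replicate 2 the lowest knockout array. Both held for the bright globin probe sets too. The highest knockout array differed, being replicate 1 for the macrophage list and replicate 3 for the bright globin probe sets. The part of these cells in the globin values was not tested.

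Of 11 myeloid and stem cell progenitor markers 2 rose, the granule enzyme genes Mpo (4.01 ± 0.14 to 5.96 ± 0.80, limma adjusted p = 0.0407) and Prtn3 (4.46 ± 0.14 to 5.98 ± 0.62, limma adjusted p = 0.0441). Both lost the call when wild type replicate 1, 2 or 3 was left out, and Prtn3 also without knockout replicate 3, with limma adjusted p up to 0.16 for Mpo and 0.186 for Prtn3. With robust variance neither passed (limma adjusted p 0.0711 and 0.0577). The list mean was 4.49 to 4.53 across wild type arrays and 4.94 to 5.57 across knockout arrays. Of 16 megakaryocyte and platelet markers 0 passed the limma test and 5 had an unadjusted p under 0.05. The thrombin receptor gene F2rl2 had 4.29 ± 0.45 and 5.41 ± 0.47 (limma adjusted p = 0.107), the platelet chemokine gene Ppbp 2.98 ± 0.18 and 3.47 ± 0.18 (limma adjusted p = 0.118), and the list mean 3.96 to 4.04 and 4.18 to 4.26. Of 8 B cell markers 0 had an unadjusted p under 0.05, with Blk at 8.06 ± 0.27 and 8.51 ± 0.71 and Ms4a1 at 9.37 ± 0.69 and 8.80 ± 0.87. The B cell list mean was 6.36, 7.62 and 6.66 on wild type replicates 1, 2 and 3. It was 6.23, 6.98 and 7.09 on knockout replicates 1, 2 and 3. The wild type array with the most globin also had the highest B cell mean. Knockout replicate 3 was the highest knockout array in both. The lowest knockout array was replicate 1 for the B cell mean and replicate 2 for adult globin. The part of these cells in the globin values was not tested either.

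**Figure D4:**
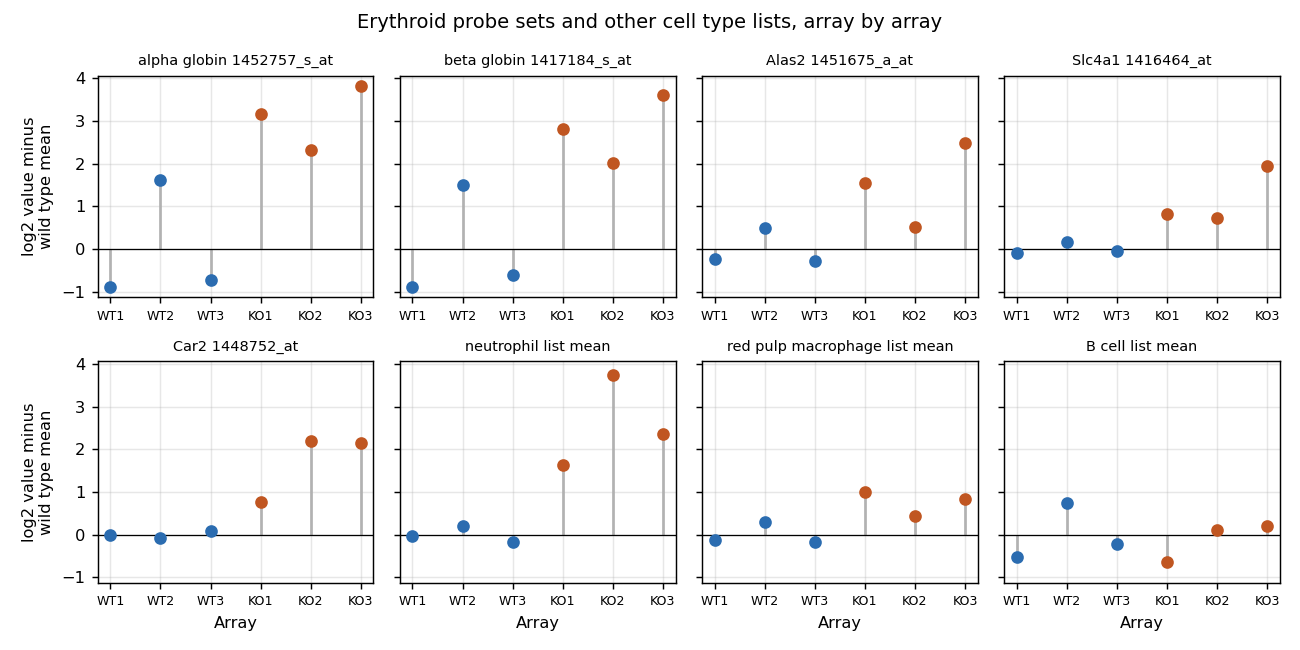
Value on each array minus the wild type mean on the log2 scale (vertical axis) for 5 erythroid probe sets and the means of 3 cell type lists, with wild type arrays (WT1 to WT3) in blue and knockout arrays (KO1 to KO3) in orange along the horizontal axis. Both globin probe sets and Alas2 are raised on wild type replicate 2 and have replicate 2 as the lowest knockout array, while Car2 and the neutrophil mean have replicate 1 as the lowest knockout array.

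The genes whose pattern over the 6 arrays was most like that of the globins were taken from 567 single-symbol probe sets with an SD of at least 0.5. For the brightest alpha globin probe set, 1428361_x_at, they were Sectm1a (Pearson r = 0.94), Cd5l (0.93), Psrc1 (0.92), Vcam1 (0.91) and Smim3 (0.90). For the brightest beta globin probe set, 1417184_s_at, they were Psrc1 (Pearson r = 0.97), Smim3 (0.96), Oas2 (0.94), Cd5l (0.94) and Sectm1a (0.94). These describe 6 arrays that share the group difference. Cd5l, on the red pulp macrophage list, had 3.82, 4.68 and 3.75 on the wild type arrays against 5.94, 4.60 and 5.80 on the knockout arrays (limma adjusted p = 0.139). Vcam1, on the same list, had 4.64, 5.21 and 4.26 and then 6.88, 5.25 and 7.06 (limma adjusted p = 0.135). Psrc1 (difference 0.88, limma adjusted p = 0.0232), Smim3 (0.89, limma adjusted p = 0.034) and Oas2 (0.98, limma adjusted p = 0.035) rose. All lost the call without wild type replicate 1, wild type replicate 3 or knockout replicate 3, Smim3 and Oas2 also without knockout replicate 2 and Oas2 without wild type replicate 2, with limma adjusted p up to 0.119 for Psrc1, 0.147 for Smim3 and 0.163 for Oas2.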

How the data were processed

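Biotin-labelled RNA of 3 wild type and 3 Dnmt1 knockout samples was measured on 1-colour arrays, per the labels. The authors deposited log2 values per probe set from RMA, named in the submitters' processing notes with version and settings not given there. They ran from 1.93 to 14.7. RMA puts all arrays on 1 scale, so a change in total RNA per cell would not show, and the platform annotation can be old.

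Of 22690 probe sets, 64 controls were left out. Of the rest, 20380 carry 1 symbol, 691 several and 1555 none. limma 3.58.1 (lmFit and eBayes, R 4.3.3) compared the groups two-sided, without a filter, with Benjamini-Hochberg adjustment over all 22626 and a threshold of 0.05. Named were every member, in each list the called genes (at most 6, by p) or, with fewer than 2, the 2 with the lowest p, and the 5 genes nearest in pattern to the brightest Hba-a and Hbb-b probe sets. In the text some of the called neutrophil genes are given as a count. Members and lists were chosen with earlier results of these data known.

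On simulated data for this comparison (200 of 22626 probe sets changed, 20 simulations), 33.9%, 80.6% and 97.9% of rises of 0.5, 1 and 2 log2 units were called, and 4.52% of calls were false. The changed probe sets were drawn at random, each with its own spread. These rates therefore do not hold for the bright globin probe sets, whose spread was wide. For 1428361_x_at the SD was 1.39 in wild type and 1.06 in knockout, and its difference of 2.21 was not called. Alternatives were quantile normalisation, median centring, cyclic loess, leaving out the dimmest 40%, the brightest probe set per symbol, variance trend, robust variance, array weights, a replicate block and leaving out each array. Promoter windows are RefSeq's (GRCm38.p6), and figures came from matplotlib 3.10.9.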

Additional observations from a re-analysis of the deposited data

How the results depend on the processing

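Among the erythroid probe sets and the other genes followed through the alternatives, no called value changed sign. Signs of the remaining called probe sets were not followed. Over all probe sets, 174 were higher and 73 lower with the brightest probe set per symbol, which tests fewer, 166 and 52 with the replicate block, and 169 lower with array weights. Leaving out 1 array gave 24 (without wild type replicate 3) to 493 higher (without knockout replicate 1) and 5 to 263 lower for the same arrays. Of the 19 erythroid probe sets, 0 rose with the brightest probe set per symbol, which drops 1417714_x_at, 2 with the variance trend, 3 with array weights, and 0 to 3 with 1 array left out. The adult globin mean difference was 1.09 with the brightest probe set per symbol and 1.53 to 2.18 with 1 array left out, and that of the members without globins 0.52 to 0.85. The cause of these shifts was not tested beyond their construction. The values gave no clear sign that replicate numbers pair the samples: deviations of same-numbered arrays correlated at -0.076, 0.11 and -0.01, and not every array correlated best with its own number. With 3 arrays a group, such weak correlations cannot settle whether the samples are paired. With the replicate block, 1 of the 19 rose, as without it, while Mpo, Prtn3, Il2ra, Ikzf2, Psrc1, Smim3 and Oas2 lost their calls (limma adjusted p 0.0672, 0.0514, 0.0617, 0.0679, 0.0677, 0.0573 and 0.059). Signal over background cannot be judged from RMA values.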

Other observations

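The genes nearest to Car2 were others than those nearest to the globins, with the erythroid probe sets left out of the search. Of 567 single-symbol probe sets, listed after the values were read, the highest Pearson r with Car2 over the 6 arrays belonged to Sema4f (0.996), Bst1 (0.99), Hip1 (0.99), Ctla2b (0.98) and Il18r1 (0.98). Il18r1, a chain of the interleukin-18 receptor, rose from 9.16 ± 0.10 to 10.43 ± 0.39 (limma adjusted p = 0.022), and lost the call without wild type replicate 1, 2 or 3 or without knockout replicate 3 (limma adjusted p up to 0.104). Ctse, of the late erythroblast list, had 0.97 by its brightest probe set, which ranked 34 of the 567. With Alas2, the highest belonged to Sectm1a (0.99), Vcam1 (0.97), Stmn2 (0.95), Cd5l (0.94) and Ccnb1ip1 (0.94), of which Sectm1a, Vcam1 and Cd5l were also among those nearest to alpha globin. Over arrays that share the group difference such correlations are a description.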
